A study of Solanum lycopersicum with 36 samples.

Results

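The comparison described here sets mRNA of tomato leaves at Light 4h against mRNA of the same kind of leaves at Light 0h, that is, over the first 4 h of the light period. It was defined by its labels, as the 3 mRNA libraries labelled Light 4h and the 3 labelled Light 0h, with every gene included. These are 6 of the 36 libraries of the series, and 19711 of the 34075 gene identifiers had enough reads to be tested. The plants of both groups were Solanum lycopersicum of the genotype HeinZ 1706, 4 weeks old, kept at 25 °C with 12 h of light and 12 h of dark. The labels name no difference between them other than the time of day. The series also holds Light 8h, Dark 0h, Dark 4h and Dark 8h, with 3 libraries at each time, and a second assay on the same 6 times. That assay, GMUCT, sequences the 5′ ends of RNA that has lost its cap or has been cut, and its reads are called uncapped RNA here. The hour in a label was read as time since the start of the light or dark phase. So read, Light 0h follows 12 h of dark and Dark 0h follows 12 h of light.

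A leaf anticipates and follows the day. The circadian clock sets many genes to rise before dawn, around midday or at dusk, and light acts on the same genes through photoreceptors and through photosynthesis itself. In the hours after dawn, transcripts for the photosynthetic apparatus and for handling light stress are known to rise, while transcripts of morning clock repressors and of genes active at the end of the night are known to decline. Which identifiers belong to these classes was not determined here, since 0 of 34075 identifiers matched an entry in the reference table of 41476 tomato genes. Genes are therefore given by identifier, without names, functions or sequences, and leaf identity was not checked against marker genes.

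Each of the 6 libraries compared held between 15147175 and 27012466 reads counted in genes. The Light 4h libraries were more alike than the Light 0h libraries, with correlations of log2 CPM (each gene's reads scaled to the size of its library) between replicates of 0.989 to 0.990 at Light 4h and of 0.978 to 0.983 at Light 0h. Reads that fell on more than 1 gene and were not counted took 0.551% ± 0.0237 at Light 4h and 0.287% ± 0.017 at Light 0h (SD, n = 3 each). Reads placed at several positions took 3.19 to 3.52% at Light 4h and 2.11 to 3.00% at Light 0h. The part of these uncounted reads in the results below was not tested. Nothing in the labels ties a replicate to a plant of its own. The p-values therefore reflect only how much these libraries vary, which may be technical variation. The counts come from whole leaf tissue, in which fewer cells of a type and less RNA per cell cannot be told apart, and they give each gene's share of a library, not molecules per cell.

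Close to every other gene tested differed between the times. At Light 4h, 4409 genes were higher (22.4% of the genes tested) and 4895 were lower (24.8%) than at Light 0h, at an adjusted p under 0.05 in edgeR's quasi-likelihood test with Benjamini-Hochberg adjustment. Together these 9304 genes made up 47.2% of those tested. The median log2 change (an increase of 1 is a doubling) was 1.19 among the higher genes and -1.09 among the lower ones, against -0.03 over all genes tested. In 9185 of the 9304 genes, or 98.7%, every Light 4h library lay on one side of every Light 0h library, and so did 61.9% of all genes tested. With the libraries scaled by their totals alone, 4550 genes were higher and 4399 lower, so which direction held more genes was not settled.

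Among changes of at least 4-fold, increases were more numerous than decreases. At least 2-fold differences were found in 2695 higher genes (13.7%) and 2748 lower genes (13.9%). At 4-fold the counts were 913 higher (4.63%) and 715 lower (3.63%), and at 16-fold 167 higher (0.847%) and 84 lower (0.426%). At both of these sizes the higher genes were the more numerous in each of 12 alternative fits. These folds are fitted values, and a test against a 2-fold change itself passed 1241 higher and 1199 lower genes. At the other end, the 95% interval of the log2 change lay within 0.5 on either side of 0 for 1377 genes (6.99%), with no call among them. The remaining 9030 genes were neither called nor held within that range, so a change in them was neither detected nor excluded at this depth and spread.

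**Figure D1:**
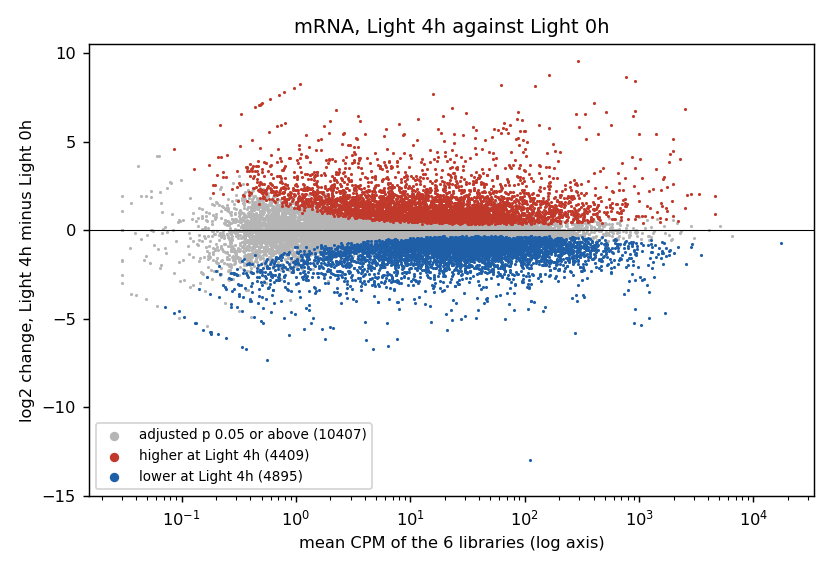
Each point is 1 of the 19711 genes tested, at its mean level in CPM (log axis) over the 6 libraries and its log2 change, Light 4h minus Light 0h. Red points are the 4409 genes higher at Light 4h and blue points the 4895 lower ones. The isolated point near the bottom is Solyc10g009390, whose reads at Light 0h came from 1 library.

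Counted without regard to the size of the change, lower genes were concentrated among the abundant transcripts, and higher genes were not. When the tested genes were ordered by their mean level over the 6 libraries and cut into 5 equal classes, the share of genes lower at Light 4h was 9.61% in the lowest class, then 16.3, 23.4 and 33.0%, and 41.9% in the highest class. The share of genes higher at Light 4h was 12.0, 23.2, 25.6, 26.1 and 25.0% in the same order. In the highest class, with means above 52.0 CPM, 986 genes were higher and 1653 lower. Over 2 other scalings and a fit on these 6 libraries alone, the shares in that class were 26.1 to 28.4% higher and 39.3 to 43.7% lower. Changes of at least 4-fold did not follow this pattern. From the lowest class to the highest, 273, 191, 126, 132 and 191 genes were higher at least 4-fold. In the same order, 213, 134, 97, 112 and 159 genes were lower at least 4-fold. Read depth also differs between the classes, and its part in these shares and counts was not tested.

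**Figure D2:**
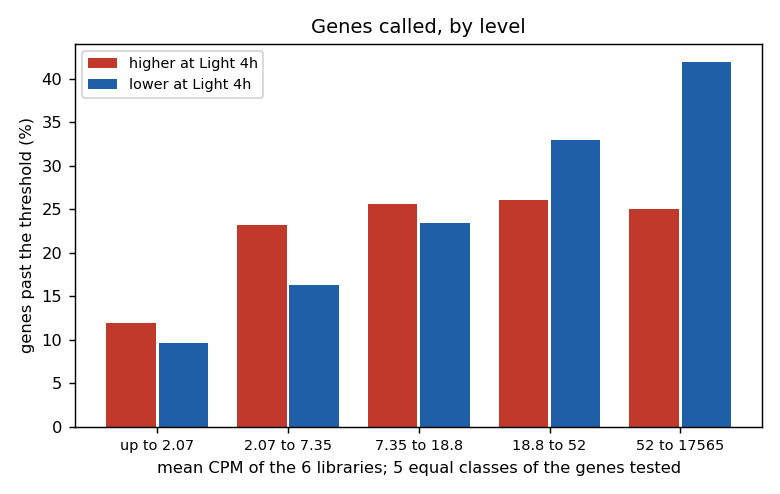
Bars give the percentage of genes called higher (red) and lower (blue) at Light 4h in 5 equal classes of mean level over the 6 libraries, in CPM. The lower genes reach 41.9% in the highest class, against 9.61% in the lowest, while the higher genes stay between 23.2 and 26.1% in the upper 4 classes.

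The share of a library's reads held by the changed genes also differed between the times. The 913 genes that were higher at least 4-fold took 14.7, 14.1 and 14.0% of the gene counts in the Light 4h libraries, against 1.87, 1.38 and 1.66% in the Light 0h libraries. The 715 genes that were lower at least 4-fold took 1.10, 1.31 and 1.19% at Light 4h, against 7.01, 8.37 and 7.44% at Light 0h. These genes were chosen by this same difference, so the shares describe its weight in the library and carry no test. The gain was uneven. Of the CPM gained by all higher genes at Light 4h, the 100 genes with the largest gains held 50.1% and the first 10 held 14.6%. Of the CPM lost, the 100 genes with the largest losses held 35.4% and the first 10 held 9.18%. The 100 most abundant genes of each library took 23.0% ± 0.261 of the counts at Light 4h and 20.7% ± 1.53 at Light 0h (SD, n = 3 each).

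Genes without reads at one time were counted where they had at least 1 CPM in every library of the other. In 5 genes no read was found in any Light 0h library while every Light 4h library had at least 1 CPM, and in 0 genes was it the other way round. The level of those 5 genes at Light 4h was 6.56- to 14.0-fold the Light 0h limit of 0.155 CPM, which stands for 3 counts per library. That limit was taken from library totals alone, without the further scaling (TMM) applied to the levels. These folds are therefore not strict lower bounds. None of the 5 reached 5 CPM in every Light 4h library. Genes with less than 1 CPM in any library of the higher time are outside this count.

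Genes were named for the largest changes among those that passed the test, averaged at least 10 CPM and had groups that did not overlap. The largest increases among them belonged to a pair of close identifiers. Whether close identifiers are near-identical copies that divide reads between them was not tested, so the levels of single genes there are uncertain. gene:Solyc02g070970.1 had 583, 627 and 538 CPM at Light 4h, against 0.315, 0.928 and 1.25 CPM at Light 0h, where the libraries held 9, 12 and 22 of its reads. Its log2 change was 9.55 ± 0.78 (SE; adjusted p = 2.57e-08, edgeR). gene:Solyc02g071000.1 had 328, 347 and 309 CPM at Light 4h, against 0.629, 0.851 and 0.851 CPM at Light 0h, a log2 change of 8.75 ± 0.71 (adjusted p = 2.39e-08). In both, every Light 4h library was far above every Light 0h library, and the Light 4h libraries differed little among themselves. Both were lower again at later times. gene:Solyc02g070970.1 averaged 271 ± 145 CPM at Light 8h and 9.48 ± 4.42 CPM at Dark 0h, and then 1.23 ± 1.07 CPM at Dark 4h and 1.06 ± 0.926 CPM at Dark 8h (SD, n = 3 each). Its Light 8h libraries were spread between 118 and 408 CPM, and the difference of Light 8h from Light 4h did not pass the threshold (log2 change -1.10 ± 0.51, adjusted p = 0.160). For gene:Solyc02g071000.1 that difference passed (-1.57 ± 0.48, adjusted p = 0.0304). Light 8h against Light 4h shares the Light 4h libraries with the main comparison, and over all genes it had 9.53% higher and 7.16% lower.

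The 2 genes with the largest decreases under the same limits had different courses over the times labelled dark. gene:Solyc03g083730.1 had 9.98, 10.4 and 8.90 CPM at Light 4h, against 442, 689 and 491 CPM at Light 0h, a log2 change of -5.79 ± 0.32 (adjusted p = 2.41e-10). Its level was high at every time labelled dark. It averaged 1095 ± 290 CPM at Dark 0h, 948 ± 274 CPM at Dark 4h and 667 ± 63.9 CPM at Dark 8h (SD, n = 3 each). At Light 8h it was at 53.0 ± 17.4 CPM, above Light 4h in every library (log2 change 2.44 ± 0.28, adjusted p = 3.74e-06). The low level was thus found in both later light groups, and the lowest at Light 4h. Solyc03g117860 had 0.631, 1.15 and 0.736 CPM at Light 4h, against 42.4, 39.5 and 41.8 CPM at Light 0h, a log2 change of -5.61 ± 0.45 (adjusted p = 2.04e-08). It averaged 0.334 ± 0.258 CPM in the Light 8h libraries and then, in the dark, 16.2 ± 3.74 CPM at 0 h, 7.20 ± 2.94 CPM at 4 h and 32.6 ± 16.6 CPM at 8 h. In this gene the Light 0h libraries agree closely, while those of Dark 8h are spread between 14.7 and 47.6 CPM.

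**Figure D3:**
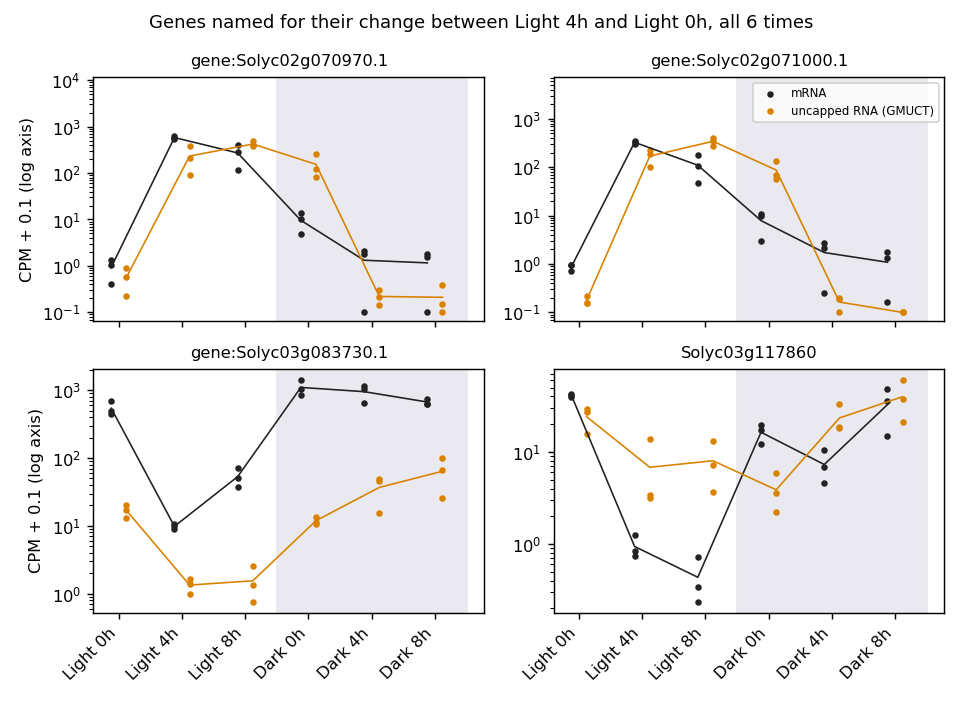
Points are libraries and lines join group means, in CPM plus 0.1 on a log axis, for the 2 largest increases and the 2 largest decreases at Light 4h among genes that averaged at least 10 CPM and had groups without overlap, and the shaded area marks the dark phase. Black is mRNA and orange is uncapped RNA. In the upper panels mRNA lies at 309 CPM or more at Light 4h, against 1.25 CPM or less at Light 0h, and in the lower panels at 10.4 CPM or less at Light 4h, against 39.5 CPM or more at Light 0h.

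The changes of the first 4 h of light mostly separated day from night later on. Light 8h and Dark 8h share no library with Light 4h and Light 0h, so their difference is a separate measurement on the genes called above. Of all genes tested, 25.5% were higher and 24.5% lower at Light 8h than at Dark 8h. Of the 4409 genes higher at Light 4h, 3330 (75.5%) were also higher at Light 8h than at Dark 8h, 30 were lower, and the median log2 difference was 1.16. Of the 4895 genes lower at Light 4h, 3582 (73.2%) were also lower at Light 8h than at Dark 8h, 84 were higher, and the median was -0.93. Over all genes tested the median was 0.01. Among the genes changed at least 4-fold, 768 of the 913 higher genes were higher at Light 8h, and 517 of the 715 lower genes were lower.

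The times of the highest and lowest group means are given as a description with no test. The genes were chosen on Light 4h and Light 0h, which favours extremes at those times and allows no gene higher at Light 4h to be lowest there. Over all genes tested, 19.2% were highest and 21.7% lowest at Light 4h, and 21.3% were highest and 19.7% lowest at Light 8h. Of the genes higher at Light 4h, 2298 (52.1%) had their highest group mean of the 6 times at Light 4h and 1743 (39.5%) at Light 8h. The highest mean of 305 stood at Dark 0h, that of 60 at Dark 4h and that of 3 at Dark 8h. Their lowest mean was less concentrated, at Light 0h in 1644 genes, at Dark 8h in 1061, at Dark 0h in 838 and at Dark 4h in 833. Of the genes lower at Light 4h, 2477 were lowest at Light 4h and a further 1961 at Light 8h, and 2092 had their peak mean at Light 0h. Dark 8h held the highest mean of a further 1115 of them, Dark 0h that of 849 and Dark 4h that of 735. Levels through the day were followed as the median, over a set's genes, of log2 CPM minus the gene's own mean over Light 8h and the 3 dark times. For the genes higher at least 4-fold this median ran -0.75, 1.95 and 1.59 over the light times (0, 4 and 8 h) and -0.33, -0.55 and -0.79 over the dark times. For the genes lower at least 4-fold it ran 0.75, -1.69 and -1.26 in the light and 0.23, 0.32 and 0.64 in the dark. The Light 0h values therefore lay close to those of Dark 8h in both sets, and the Dark 0h values lay nearer to the other dark times than to Light 8h.

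**Figure D4:**
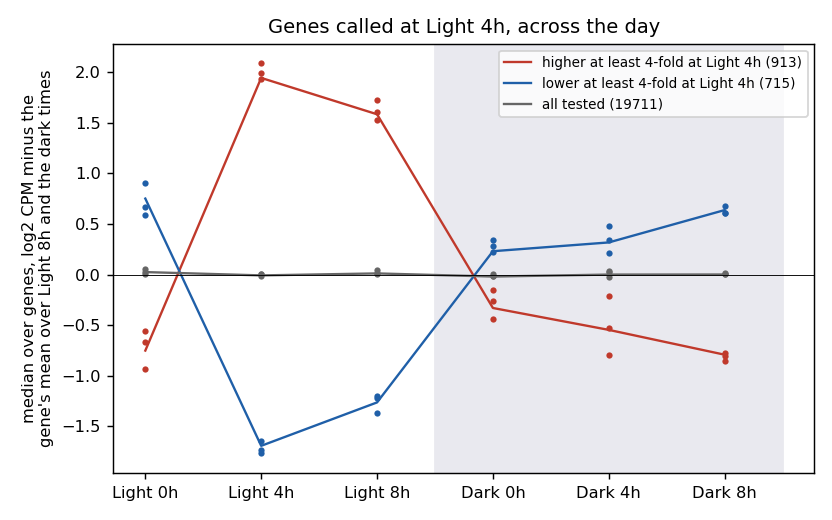
Lines give the median over genes of log2 CPM, minus each gene's own mean over Light 8h and the 3 dark times, and points give the same median in single libraries. The 913 genes higher at least 4-fold (red) and the 715 lower at least 4-fold (blue) were chosen on Light 4h and Light 0h, so only the other 4 times are free of that choice. There the sets keep opposite signs, with medians of 1.59 and -1.26 at Light 8h and of -0.79 and 0.64 at Dark 8h. Each gene's values at those times cancel by construction, so its signs at Light 8h and at Dark 8h are not independent.

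Fewer genes passed the test over the first 4 h of dark. Dark 4h against Dark 0h, which also shares no library with the main comparison, had 2475 higher genes (12.6%) and 2189 lower genes (11.1%). Dark 4h replicate 1 held 6632784 reads counted in genes, the fewest of all mRNA libraries. The part of read depth and of the spread between libraries in these smaller counts was not tested. Of the genes higher at Light 4h, 545 were higher and 706 lower at Dark 4h than at Dark 0h. Of the genes lower at Light 4h, 922 were higher and 532 lower. With library totals as the only scaling, the genes higher at Light 4h divided into 568 higher and 555 lower, so the direction of that split was not settled. The change over the first 4 h of light was then tested directly against the change over the first 4 h of dark. The light change was above the dark change in 3817 genes (19.4%) and below it in 4503 (22.8%), 42.2% of the genes tested in all. Which of the directions held more genes turned with the fit: on the 12 libraries alone the counts were 4370 above and 4033 below, and without Dark 4h replicate 2 they were 4224 and 3711.

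The 4 genes named for the largest difference between light and dark change, under the same limits, had changes of opposite sign, which choosing them by that difference favours. gene:Solyc03g005770.3 had 250, 248 and 231 CPM at Light 4h, against 0.769, 0.774 and 1.08 CPM at Light 0h. It had 0, 0.863 and 1.06 CPM at Dark 4h, against 31.1, 89.7 and 17.97 CPM at Dark 0h. Its log2 change was 8.12 ± 0.61 in the light and -5.85 ± 0.59 in the dark, and these differed by 13.96 ± 0.84 (adjusted p = 9.51e-10). Solyc07g006630 had 58.5, 67.1 and 57.6 CPM at Light 4h, against 0.350, 0.387 and 1.19 CPM at Light 0h. It had 0, 0.460 and 0.886 CPM at Dark 4h, against 75.5, 74.3 and 60.3 CPM at Dark 0h, and its light and dark changes differed by 13.50 ± 0.57 (adjusted p = 1.24e-11). Both genes were thus high in every library from Light 4h to Dark 0h, and in the other 3 groups no library passed 1.56 CPM.

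In the opposite direction, Solyc02g036370 had 45.7, 47.1 and 45.8 CPM at Light 4h, against 1216, 2235 and 1843 CPM at Light 0h. It had 546, 186 and 273 CPM at Dark 4h, against 51.7, 54.4 and 50.4 CPM at Dark 0h, and its light and dark changes differed by -7.94 ± 0.45 (adjusted p = 4.00e-10). Its means at Light 4h, Light 8h and Dark 0h, of 46.2, 39.3 and 52.2 CPM, were close to one another, and the level at Light 0h was above that of Dark 8h (log2 change 1.78 ± 0.29, adjusted p = 0.000697). Light 0h against Dark 8h shares the Light 0h libraries with the main comparison and had 3.63% of all genes higher and 2.29% lower. Solyc09g075840 had 1.20, 1.91 and 1.94 CPM at Light 4h, against 32.2, 79.3 and 49.2 CPM at Light 0h. It had 197, 93.2 and 72.6 CPM at Dark 4h, against 19.6, 20.8 and 20.7 CPM at Dark 0h, and the changes differed by -7.55 ± 0.61 (adjusted p = 4.03e-08). No library of one time overlapped with those of the other in either pair for these genes. Groups without overlap were a condition for naming a gene.

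**Figure D5:**
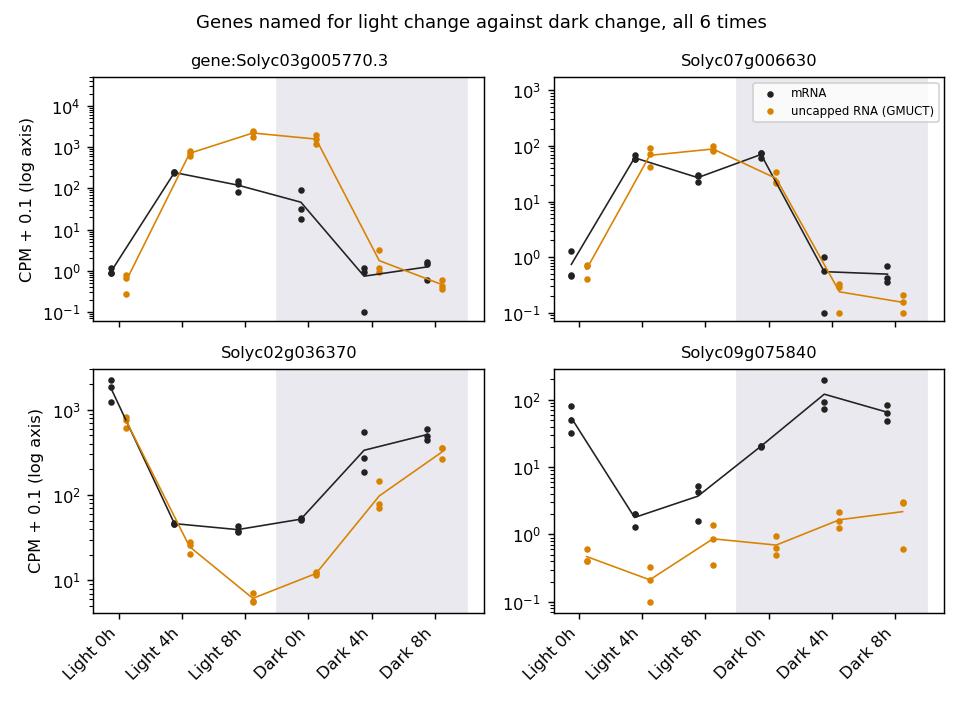
Points are libraries and lines join group means, in CPM plus 0.1 on a log axis, for the 4 genes named for the difference between light change and dark change, with the dark phase shaded. Black is mRNA and orange is uncapped RNA. The mRNA in the upper panels is high from Light 4h to Dark 0h and that in the lower panels is low over the same times, with Solyc09g075840 already at 20.3 CPM at Dark 0h.

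Uncapped RNA was measured in libraries of its own. In GMUCT, 3060 genes (14.8%) were higher and 3271 (15.8%) lower at Light 4h than at Light 0h. Of the genes higher in mRNA, 4377 were tested in GMUCT, of which 2089 (47.7%) were higher and 20 lower. Of those lower in mRNA, 4783 were tested, of which 2389 (49.9%) were lower and 35 higher. The 913 genes whose mRNA was higher at least 4-fold included 889 tested in GMUCT, of which 610 were higher and 1 was lower, with a median log2 change of 1.56. The 715 genes whose mRNA was lower at least 4-fold included 621 tested, of which 300 were lower and 5 higher, with a median of -0.97. Over all genes tested in both assays the median was 0.02. The GMUCT medians are set beside mRNA changes by which the genes were chosen, and choice alone makes the mRNA changes large.

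The largest increases in uncapped RNA, under the same limits, lay in the region of identifiers already named, where levels of single genes are uncertain. gene:Solyc02g070980.1, between gene:Solyc02g070970.1 and gene:Solyc02g071000.1 by identifier, had 52.5, 98.2 and 136 CPM of uncapped RNA at Light 4h, against 0, 0.0571 and 0 CPM at Light 0h. Summed over libraries these were 5157 and 1 reads, a ratio of 5148 after scaling to library size with a 95% counting interval from 923 to 203359. That interval reflects counting alone and leaves out the spread between libraries. The gene's fitted log2 change in uncapped RNA was 11.83 ± 0.86 (SE; adjusted p = 1.39e-07, edgeR). Its mRNA was at 31.3, 31.9 and 30.4 CPM at Light 4h and at 0.315, 0 and 0 CPM at Light 0h. gene:Solyc02g071000.1 had 99.2, 186 and 224 CPM of uncapped RNA at Light 4h, against 0.0598, 0.114 and 0.0593 CPM at Light 0h. In both genes the uncapped RNA averaged more at Light 8h than at Light 4h, with 175 ± 26.1 and 345 ± 62.8 CPM, whereas the mRNA averaged less, with 9.21 ± 4.44 and 110 ± 63.9 CPM (SD, n = 3 each). The change in the ratio of uncapped RNA to mRNA between Light 4h and Light 0h did not pass the test in gene:Solyc02g070980.1 (4.19 ± 1.82, adjusted p = 0.130) or in gene:Solyc02g071000.1 (2.25 ± 1.35, adjusted p = 0.297). In gene:Solyc02g070970.1 it was -0.57 ± 1.14 (adjusted p = 0.799).

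Among genes that fell, Solyc05g009310 had 0.394, 0.279 and 0.0552 CPM of uncapped RNA at Light 4h, against 78.7, 77.4 and 61.1 CPM at Light 0h (log2 change -8.19 ± 0.44, adjusted p = 5.00e-09). Its mRNA fell less, to 40.03, 53.2 and 52.8 CPM at Light 4h, against 1548, 2515 and 1991 CPM at Light 0h (log2 change -5.37 ± 0.34), and the difference of the changes passed the test (-2.76 ± 0.57, adjusted p = 0.00196). Solyc04g007470 had 0.676, 0.725 and 0.829 CPM of uncapped RNA at Light 4h, against 72.8, 66.2 and 39.0 CPM at Light 0h (log2 change -6.31 ± 0.34, adjusted p = 4.66e-09). Its mRNA was at 3.04, 1.91 and 2.08 CPM at Light 4h and at 61.2, 82.4 and 74.1 CPM at Light 0h (log2 change -4.94 ± 0.26), and its ratio changed by -1.32 ± 0.42 (adjusted p = 0.0365).

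For gene:Solyc03g083730.1 and Solyc03g117860, named above for their mRNA decreases, the uncapped RNA fell less than the mRNA. The log2 change of the ratio of uncapped RNA to mRNA was 2.09 ± 0.62 in gene:Solyc03g083730.1 (adjusted p = 0.0259) and 3.82 ± 0.81 in Solyc03g117860 (adjusted p = 0.00232). The uncapped RNA of Solyc03g117860 was at 13.7, 3.07 and 3.31 CPM at Light 4h, against 27.1, 15.7 and 29.5 CPM at Light 0h. Its highest Light 4h library lay just below its lowest Light 0h library.

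Across all genes the ratio of uncapped RNA to mRNA passed the test upwards at Light 4h in 1448 genes (7.56%) and downwards in 945 (4.93%) of 19161 tested in both assays. With another scaling (relative log expression) the counts were 1176 and 1196, so which direction held more was not settled. Solyc02g093720 shows an mRNA increase without one in uncapped RNA. Its mRNA was at 185, 169 and 176 CPM at Light 4h, against 4.30, 2.24 and 4.20 CPM at Light 0h, while its uncapped RNA was at 180, 208 and 211 CPM at Light 4h and 220, 178 and 174 CPM at Light 0h. The ratio changed by -5.48 ± 0.50 (adjusted p = 1.20e-07). Solyc12g044330 shows the reverse, with mRNA at 2.35, 4.02 and 3.48 CPM at Light 4h, against 60.3, 87.8 and 76.5 CPM at Light 0h, and uncapped RNA at 15.3, 21.9 and 19.1 CPM at Light 4h against 20.9, 10.7 and 9.37 CPM at Light 0h. Its ratio changed by 5.02 ± 0.74 (adjusted p = 6.28e-05). In both genes the libraries of the times do not overlap in mRNA and do overlap in uncapped RNA.

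A further pair named by the same rule rested on single libraries. In Solyc07g041920 the ratio changed by 4.08 ± 1.16 (adjusted p = 0.0199), with uncapped RNA at 70.1, 67.7 and 412 CPM at Light 4h and 17.8, 15.1 and 11.0 CPM at Light 0h. Without GMUCT Light 4h replicate 3 it changed by 2.67 (adjusted p = 0.113), and without mRNA Light 4h replicate 1 by 4.00 (adjusted p = 0.0511). In Solyc02g086650 it changed by -4.23 ± 1.08 (adjusted p = 0.00943), with uncapped RNA at 161, 123 and 59.6 CPM at Light 4h and 16.3, 11.3 and 62.3 CPM at Light 0h. Without GMUCT Light 0h replicate 3 it changed by -3.11 (adjusted p = 0.0526).

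Calls of neighbouring identifiers are described here after the values were seen and with no test. Tomato identifiers are numbered along the chromosomes. After a gene higher at Light 4h, the next identifier tested was also higher in 27.7% of cases and lower in 22.3%, beside 22.4% and 24.8% of all genes tested. After a lower gene, the next was also lower in 28.8% and higher in 19.6%. Runs of consecutive tested identifiers that were all higher at least 4-fold numbered 88 with 2 or more members, 15 with 3 or more and 3 with 4 or more, and those all lower at least 4-fold numbered 65, 10 and 1. The longest run held 9 identifiers of chromosome code 2, with log2 changes of 2.97 to 9.55, and it included gene:Solyc02g070970.1, gene:Solyc02g070980.1 and gene:Solyc02g071000.1. Whether members of a run are near-identical copies or overlapping genes that divide reads between them was not tested, so the levels of single members are uncertain. The share of reads that fell on more than 1 gene, 0.551% at Light 4h and 0.287% at Light 0h, moved in the direction of the higher runs, and its part in them was not tested.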

How the data were processed

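The authors deposited raw read counts per gene for every library. The tools named per the submitters' processing notes are HTSeq, STAR 2.4.2a and cutadapt. Build, annotation, settings and strandedness are not given in the sources used. Reads from genes that overlap on both strands could thus be mixed. Reads not counted in a gene (9.83 to 11.6% of mRNA counts in the 6 libraries compared) were left out. They lay outside genes, on more than 1 gene or at several positions. Counts were fitted with R 4.3.3 and edgeR 4.0.16, separately for mRNA and GMUCT, on 6 group means over 18 libraries, with filterByExpr, TMM scaling, quasi-likelihood test, Benjamini-Hochberg adjustment, threshold 0.05. CPM are scaled by TMM library sizes, and a standard error is the absolute log2 change divided by the square root of F. The ratio of assays was tested in 1 model as an interaction. Genes named passed the threshold, averaged at least 10 CPM and had groups that did not overlap. They are the 2 with the largest change in each direction. The ratio rule compares every pairing of libraries with 0.5 CPM added, and in that wording was set after the values were seen. The comparison, lists and rules were chosen with earlier results of these data known. The 20 gene lists prepared could not be run without gene names. The fit was tested on simulated data for Light 4h against Light 0h with 19392 genes. It found 43 of 100 changes of 1 and 92 of 100 changes of 2 on the log2 scale, with 8 false calls. Only these seeded genes changed in the simulation, whereas 47.2% of the genes tested were called in the data. The shares found in the simulation need not hold for the data. Alternatives were DESeq2 1.42.0, other scalings, filters and designs, and leaving out each replicate.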

Additional observations from a re-analysis of the deposited data

Results flagged for a closer look

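The change over the first 4 h of light differed from the change over the first 4 h of dark in many genes, by a test of the difference itself (edgeR quasi-likelihood test). It was above the dark change in 3817 genes (19.4% of those tested) and below it in 4503 (22.8%). Which direction held more genes turned with the fit. For the genes named for this difference, the light change minus the dark change on the log2 scale was 13.96 in gene:Solyc03g005770.3, 13.50 in Solyc07g006630, -7.94 in Solyc02g036370 and -7.55 in Solyc09g075840. For the genes named for their change at Light 4h it was 12.25 in gene:Solyc02g070970.1, 10.80 in gene:Solyc02g071000.1, -5.58 in gene:Solyc03g083730.1 and -4.48 in Solyc03g117860. Choosing genes by this difference, or by the light change that is part of it, favours large values. The dark change alone was -2.69, -2.05, -0.21 and -1.14 in the same order. In gene:Solyc03g083730.1 it did not pass the test (adjusted p = 0.605, edgeR), and in Solyc03g117860 it had the sign of the light change.

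Outside the gene counts, the share of mRNA reads that fell on more than 1 gene averaged 0.551% at Light 4h, above every Light 0h library (0.273 to 0.306%).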

How the results depend on the processing

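Of 4409 higher and 4895 lower genes, 3148 (71.4%) and 3529 (72.1%) kept their call in all 12 alternatives that refitted the main comparison, an adjusted p that DESeq2 left out counting as no loss. The sign turned in 0 of the higher genes and in 1 of the lower. Leaving out 1 library at a time gave 3514 to 4137 higher and 3904 to 4670 lower genes. Replicate numbers did not pair the libraries (correlations of deviations -0.087 to 0.096 between Light 4h and Light 0h, 1 of 3 libraries closest to its own number). With the replicate block the counts were 4304 higher and 4813 lower, with 3715 and 4395 for light against dark change and 3110 and 3288 in GMUCT. A test against 2-fold passed 1241 higher and 1199 lower genes. Genes held within 0.5 numbered 2121 when only the 6 libraries were fitted, and 858 to 1090 without 1 library. Ratio calls without 1 library ranged from 733 (without mRNA Light 0h replicate 2; 958 without mRNA Light 4h replicate 1) to 1471 higher and from 612 (without GMUCT Light 4h replicate 1) to 1105 lower. A fit of the Dark 4h and Dark 0h libraries alone called 1400 increases and 1468 decreases at Dark 4h over all genes. In the set higher at Light 4h it called 305 increases and 468 decreases, and in the set lower at Light 4h 560 and 400. At 5 CPM, 0 genes appeared from 0 reads. Genes changed at least 2-fold took 28.4% of counts at Light 4h and 6.72% at Light 0h when higher, and 11.2 and 31.9% when lower. The alternatives for the ratio without 1 library, for Dark 4h against Dark 0h among called genes, for Light 8h against Dark 8h among called genes without 1 library and for the highest class of level were chosen after seeing the data. The causes of these shifts were not tested. Named genes kept their direction in every alternative run and lost their call in 3, given with the ratio above. Levels near the 0.155 CPM that 3 counts stand for limit what can be seen at Light 0h.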

Other observations

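Solyc10g009390, chosen after its values were seen, had the largest fitted decrease of all genes tested, with a log2 change of -12.95 ± 4.72 at Light 4h (edgeR, adjusted p = 0.0304), and was 1 of 119 genes called although libraries of the groups overlapped. It had 1, 0 and 0 reads in the Light 4h libraries and 18991, 0 and 0 in the Light 0h libraries. Without Light 0h replicate 1 the log2 change was 1.91 (adjusted p = 0.942). In the other groups it had 22718 reads in Dark 0h replicate 2 and 5411 in Dark 4h replicate 1, and at most 6 in any further mRNA library. The 3 libraries with reads thus belong to 3 different times, at 664, 789 and 846 CPM.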
